A study of Mus musculus with 8 samples.

Results

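The ATP-binding cassette (ABC) transporter family was examined in 2 sorted populations of mouse liver duct cells. Its members were taken as every gene whose symbol reads Abc, then a subfamily letter from a to g, then a digit. This gave 49 of the 20377 genes in the deposited tables, carried by 60 of 26005 transcripts. For the 7 genes listed with several transcripts, the transcript with the largest summed count over the 8 libraries was kept.

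Cells came from the livers of adult C57BL/6 mice labelled wild type. Non-parenchymal cells that bound the duct antibody MIC1-1C3, lacked CD26 and were not blood cells were divided by flow cytometry into an ST14high and an ST14low population. ST14 is matriptase, a membrane serine protease. Fresh cells of each population went into TRIzol, and 4 total-RNA libraries per population were made with an Illumina TruSeq kit. The labels do not say whether the libraries of a population came from separate animals, so the spread behind every p-value is that between these libraries, which may be technical.

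ABC proteins use ATP to move substrates across membranes. A full-length transporter carries a pair of nucleotide-binding domains and a pair of membrane domains on one chain, and shorter members that carry a single set of each combine to form the same unit. In the liver, members on the canalicular membrane of hepatocytes export bile salts, phospholipid, sterol and conjugates into bile, and members on the basolateral membrane return conjugates to the blood. Cells lining the bile ducts meet that bile, and the family is also known for multidrug efflux in epithelial and progenitor cells. Other members work in mitochondria, peroxisomes and lysosomes, and the E and F subfamilies lack membrane domains and act in translation.

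Library totals ran from 6398307 counts in ST14low replicate 3 to 42769988 in ST14high replicate 3. Levels in CPM, the counts scaled to library size, were computed from the raw counts with library sizes adjusted by the trimmed mean of M-values (TMM). All 10 biliary epithelial markers examined were detected. Spp1 lay between 8572 and 21570 CPM, and Sox9 between 402 and 526 CPM. The summed level of the 10 was 31130 to 54800 CPM in ST14high and 36420 to 53860 CPM in ST14low. Markers of other cell types were present in both populations, and ST14high replicate 1 stood apart. Its 13 stellate cell, pericyte and fibroblast markers summed to 2734 CPM, against 720 to 897 in the other ST14high libraries and 323 to 653 in ST14low. Rgs5 alone gave 114.5 to 250 CPM of these sums in ST14high and 156 to 351 in ST14low. The 13 pancreatic acinar markers summed to 10930 CPM in ST14high replicate 1, against 5.66 to 1612 in the other ST14high libraries and 4.93 to 123 in ST14low. Of these acinar markers Amy2a5 had 0 counts in all libraries.

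Most of the family was detected in these libraries, which also held RNA of other cell types, and a few members carried most of its signal. A gene with any count in a library was taken as detected there. Of the 49 genes, 40 were detected in every library, between 41 and 47 were detected in any one library, and 30 reached a mean of at least 10 CPM in a population. Levels of different genes were compared by RPKM (reads scaled to transcript length and library size), which the authors deposited. Abcc3, a basolateral exporter of bile acid and glucuronide conjugates, had the highest mean level at 89.5 RPKM (72.2 to 103 over the 8 libraries). Abcd3, which brings branched fatty acids and bile acid precursors into peroxisomes, followed at 86.1 RPKM (73.8 to 97.0). The ranges of those leading genes overlapped. Abca3, a phospholipid transporter of lamellar bodies, had 48.0 RPKM (42.1 to 58.4), below both in all libraries. Abcb1a, a P-glycoprotein that exports drugs, had 41.7 RPKM (29.7 to 53.8), a range that overlapped that of Abca3. Next came Abcf1 with 38.2 RPKM, Abcc5 with 37.1, Abca2 with 27.6, Abce1 with 24.99, Abcf3 with 20.9 and Abcf2 with 20.5. These 10 genes held 69.8% of the family's summed RPKM, which was 576.5 to 682 in the single libraries. Abcc3 alone held 14.4%.

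**Figure D1:**
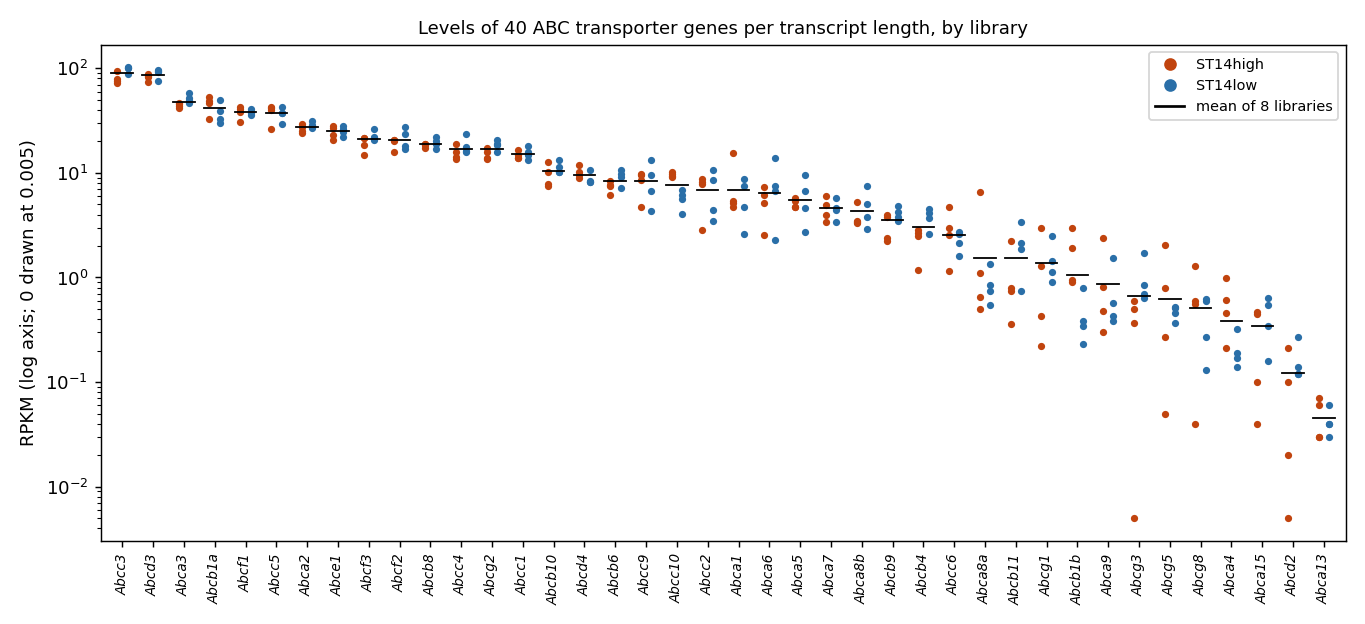
RPKM of 40 of the 42 ABC genes tested (log axis), ordered by their mean over 8 libraries. Each point is 1 library, with ST14high on the left and ST14low on the right of each gene, and the line is the mean. The points of the populations lie among each other for nearly every gene, and they spread more widely from Abca8a rightward, where mean levels are under 2 RPKM.

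The remaining 7 genes had too few counts to be tested. Abcc8 had 71 counts over all libraries, Abcc12 had 69, Abcg4 had 42, Abca14 had 27 and Abca17 had 20. Abca12, the lipid transporter of the epidermis, and Abcb5 had 0 counts. A count of 0 allows up to 3 counts in a library, which was 0.462 CPM in the shallowest library and 0.0707 CPM in the deepest, and this limit covers counting error only.

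The family as a whole differed little between ST14high and ST14low. No member reached an adjusted p under 0.05 in edgeR's quasi-likelihood test, nor did any of the 13749 genes tested (0% of genes called). At an unadjusted p under 0.05, 3 of 42 members were higher in ST14high (7.14%, against 6.89% of all genes). These were Abcc10, Abcb1b and Abca4. One member, Abcb4, was lower (2.38%, against 2.68% of all genes). All 4 libraries of ST14high lay above all 4 of ST14low for Abcc10 and Abcb1b (4.76% of members, against 4.09% of all genes). No member had all ST14high libraries below ST14low, a pattern shown by 2.33% of all genes. These shares were close to those of all genes. With limma voom, run with weights for the quality of each library, no member passed either. DESeq2 called 2 of the 41 members to which it gave an adjusted p, Abcc10 and Abcb1b, both higher in ST14high, and called 1.62% of all genes in that direction. In bulk libraries a difference in the number of cells of a type and one in RNA per cell cannot be told apart.

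The members' log2 fold changes, ST14high over ST14low, had a median of -0.07, against 0.00 for all genes. Of the 42, 17 were above 0 and 25 below, and 31 were within 1.5-fold. They ranged from -1.37 for Abcg3 to 2.06 for Abcb1b. Precision followed the level of the gene. For the 30 members with at least 10 CPM in a population, the median standard error was 0.18 on the log2 scale, and the 95% interval of 25 lay within 2-fold in either direction. For the 12 tested members under 10 CPM, the median standard error was 0.77, and 0 had an interval that narrow. The coefficient of variation over the 8 libraries had a median of 18.3% (6.98% to 64.1%) in the first set and 75.0% (33.5% to 143%) in the second.

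The count at an unadjusted p under 0.05 was 2 without ST14low replicate 1 (4.65% of members, against 6.43% of all genes in that fit) and 2 without ST14low replicate 4 (4.65% against 7.51%). With limma voom it was 8 (19.0% against 11.1%). Of these, Abcc10 and Abcb1b were higher in ST14high, and Abcc3, Abca3, Abcg2, Abcb4, Abcb9 and Abcg1 were lower. Abca4 was not among them. With any 1 library left out, the share of all genes whose populations did not overlap was also higher. Such members numbered 6 without ST14high replicate 1 (14.0%, against 11.8% of all genes), 4 without replicate 2 (9.52% against 10.6%) and 4 without replicate 3 (9.3% against 10.8%). They numbered 4 without ST14low replicate 2 (9.3% against 10.02%), 5 without replicate 3 (11.9% against 12.8%) and 5 without replicate 4 (11.6% against 9.03%). In the full set of libraries the shares were 4.76% and 6.42%.

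**Figure D2:**
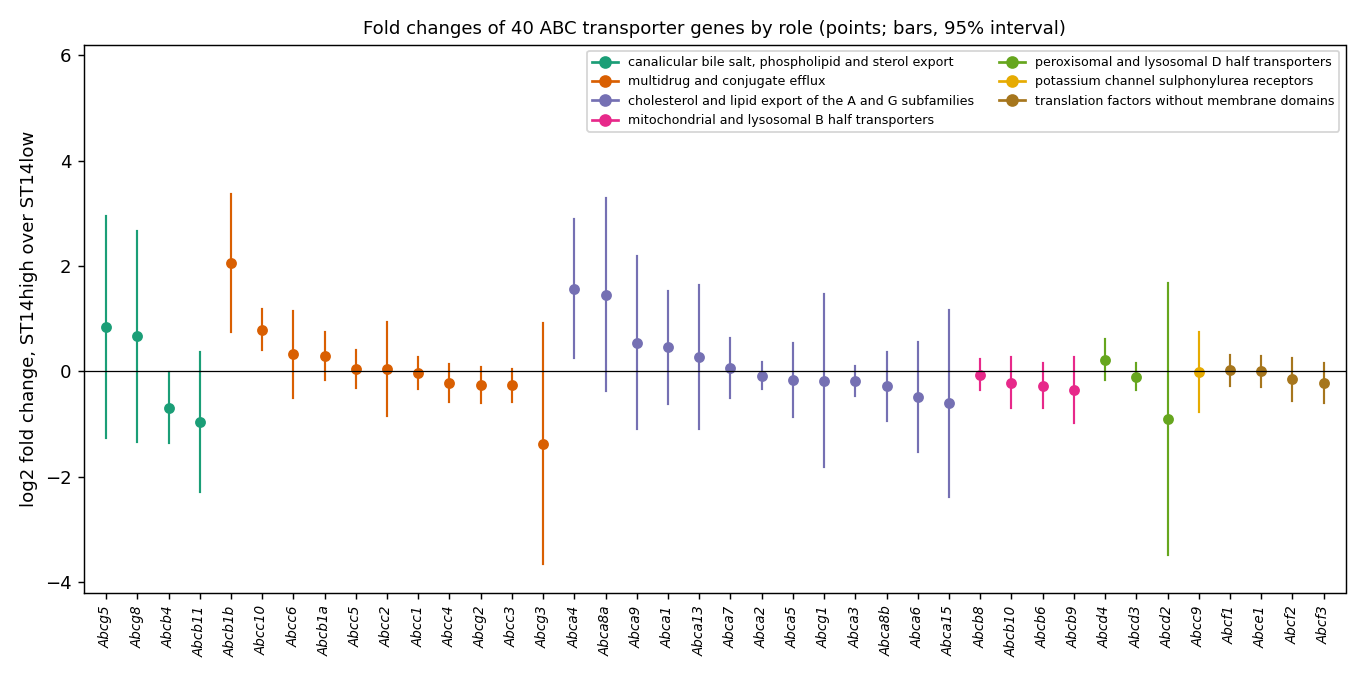
Log2 fold change, ST14high over ST14low, of 40 of the 42 ABC genes tested, grouped and coloured by role. Points are edgeR estimates and bars are 95% intervals, with 0 marked by a line. Intervals of Abcb1b, Abcc10 and Abca4 lie above 0 and that of Abcb4 below it, and the widest intervals belong to genes at low levels such as Abcd2 and Abcg3.

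The canalicular exporters were at low levels, and none passed the test. Among these 4 genes, 2 fold changes were above 0 and 2 below, with a median log2 of -0.01. Abcb4, the phosphatidylcholine floppase that protects ducts from bile salts, gave 3.97, 8.30, 8.28 and 7.44 CPM in ST14high replicates 1 to 4. The ST14low libraries gave 12.6, 8.13, 13.7 and 11.1 CPM. ST14low replicate 2 fell among the ST14high libraries, and the other ST14low libraries lay above all of them. The mean was 6.996 ± 2.06 CPM in ST14high and 11.4 ± 2.42 in ST14low (SD, n = 4 each). The difference was -0.69 on the log2 scale (SE 0.30), with an unadjusted p of 0.0447 and an adjusted p of 0.51 in edgeR.

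Abcb11, the bile salt export pump of hepatocytes, gave 3.21, 8.34, 1.42 and 3.02 CPM in ST14high and 12.9, 7.37, 8.17 and 2.81 CPM in ST14low. The populations overlapped, with 1 high library in ST14high and 1 low library in ST14low. For Abcb11 the log2 fold change was -0.97 (SE 0.60, adjusted p = 0.616). It was -1.62 without ST14high replicate 2 and -0.26 with limma voom. The 16 hepatocyte markers summed to 5338 to 13190 CPM in ST14high and 8824 to 15050 in ST14low, and all 16 had log2 fold changes below 0 (median -0.47). Their part in the Abcb11 and Abcb4 values was not tested.

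Abcg5 and Abcg8 are short transporters that pair to form the sterol exporter of the canaliculus. Their genes lie head to head on chromosome 17, 206 bases apart in mm9. Abcg5 gave 4.04, 1.35, 0.0943 and 0.474 CPM in ST14high and 0.808, 0.665, 0.924 and 0.874 in ST14low. Abcg8 gave 2.08, 1.71, 0.118 and 4.03 CPM in ST14high and 1.96, 0.409, 1.85 and 0.843 in ST14low. For both genes the ST14high libraries spread on both sides of the ST14low range, and the highest library was replicate 1 for Abcg5 and replicate 4 for Abcg8. The log2 fold change was 0.84 for Abcg5 (SE 0.94, adjusted p = 0.782) and 0.67 for Abcg8 (SE 0.90, adjusted p = 0.819). Without ST14high replicate 1 the value for Abcg5 was -0.37, and without ST14high replicate 4 that for Abcg8 was 0.043. Both turned below 0 with limma voom, at -0.44 and -0.20.

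Multidrug and conjugate exporters held both genes whose populations did not overlap. Of 11 members of this group tested, 6 had fold changes above 0 and 5 below (median log2 0.04), and DESeq2 called Abcc10 and Abcb1b. The remaining 9 did not pass with any tool. The RefSeq table of promoters (GRCm38.p6) held 37 of the 49 ABC genes, and the 250 bases before a start site of Abcc10 and Abcb1b are printed because these are the members whose populations did not overlap. Capitals mark the GC box GGGCGG, or CCGCCC when read on the other strand, and the CCAAT box, which reads ATTGG on the other strand. Abcc10 (chr17:46328024-46328273, minus strand) holds 1 GC box, and Abcb1b (chr5:8797897-8798146, plus strand) holds 1 GC box and 2 CCAAT boxes. The table lists a second Abcc10 start further in, whose window also holds 1 GC box and is not shown.
Abcc10: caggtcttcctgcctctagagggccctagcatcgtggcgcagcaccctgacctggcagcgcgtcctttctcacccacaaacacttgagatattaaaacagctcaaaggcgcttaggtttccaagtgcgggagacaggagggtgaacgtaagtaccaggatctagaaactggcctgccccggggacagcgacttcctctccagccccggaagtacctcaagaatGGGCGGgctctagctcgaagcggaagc
Abcb1b: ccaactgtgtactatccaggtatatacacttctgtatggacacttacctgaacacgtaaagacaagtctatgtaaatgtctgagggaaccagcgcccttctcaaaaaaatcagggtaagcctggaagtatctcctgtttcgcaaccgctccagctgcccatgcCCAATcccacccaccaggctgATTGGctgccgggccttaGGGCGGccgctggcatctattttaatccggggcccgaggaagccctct

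Among all 32851 promoter windows of that length in the table, 32.7% held a GC box and 33.8% a CCAAT box on either strand. A match describes the letters in the window and shows no binding. A TATAAA box, found in 12.4% of all windows, was in neither sequence.

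Abcc10 encodes MRP7, a full-length efflux transporter of the C subfamily that accepts taxanes and estradiol glucuronide. It gave 41.99, 35.5, 40.1 and 40.6 CPM in ST14high and 22.9, 16.7, 27.7 and 24.5 CPM in ST14low. The lowest ST14high library was above the highest ST14low library, and the 4 ST14high values lay close together. The means were 39.6 ± 2.81 and 23.0 ± 4.65 CPM (SD, n = 4 each), a fold of 1.73 with a 95% interval of 1.32 to 2.26. On the log2 scale the difference was 0.79 (SE 0.17), with an unadjusted p of 0.00111 and an adjusted p of 0.195 in edgeR and an adjusted p of 0.00703 in DESeq2. Its other listed transcript, which starts further in, gave 39.0 ± 3.17 and 22.2 ± 4.29 CPM. The part of other cell types, such as stellate and mesothelial cells, in the Abcc10 values was not tested.

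The related gene Abcc1, which exports glutathione conjugates, had 72.1 ± 7.31 CPM in ST14high and 73.7 ± 9.19 in ST14low. Abcc10 counts were 53.5%, 55.1%, 59.7% and 52.0% of Abcc1 counts in ST14high and 26.7%, 25.7%, 36.9% and 35.7% in ST14low. Since Abcc1 was near level, this ratio restates the Abcc10 values and adds no separate evidence. In mm9 the gene spans 46440178 to 46464972 on chromosome 17, minus strand. It overlaps Dlk2 on the other strand by at most 43 bases, and Dlk2 had 16 counts over all libraries.

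Abcb1b, the second mouse P-glycoprotein, had the largest fold change of the 42 members at a low level. It gave 10.8, 2.86, 3.14 and 6.25 CPM in ST14high and 1.11, 0.767, 2.62 and 1.22 CPM in ST14low. The gap between the populations was narrow, since ST14high replicate 2 lay just above ST14low replicate 3, while ST14high replicates 1 and 4 were well above all others. The fold was 4.16 with a 95% interval of 1.68 to 10.3, on means of 5.77 ± 3.71 and 1.43 ± 0.817 CPM (SD, n = 4 each). The log2 fold change was 2.06 (SE 0.59), with an unadjusted p of 0.00573 and an adjusted p of 0.302 in edgeR and an adjusted p of 0.0361 in DESeq2. The edgeR value was 1.57 without ST14high replicate 1, the library with the highest stellate cell and acinar marker sums, whose part in the Abcb1b level was not tested.

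The DESeq2 calls depended on single libraries. With 1 library left out at a time, an alternative chosen after seeing the data, Abcc10 stayed under 0.05 in 7 of 8 fits. Without ST14low replicate 1 its adjusted p was 0.0733. For Abcb1b the adjusted p was 0.166 without ST14high replicate 1, 0.126 without ST14high replicate 4, and 0.202, 0.174 and 0.175 without ST14low replicates 1, 2 and 4.

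Abcb1a, the paralog that lies 49575 bases from Abcb1b on the same strand of chromosome 5 (mm9), was far more abundant. Per length it had 41.7 RPKM, against 1.06 for Abcb1b. It gave 203, 183, 214 and 127 CPM in ST14high and 128, 119, 194 and 150 CPM in ST14low, so the populations overlapped. The log2 fold change of Abcb1a was 0.30 (SE 0.20, adjusted p = 0.649). Abcb1b counts were 5.34%, 1.56%, 1.46% and 4.92% of Abcb1a counts in ST14high and 0.864%, 0.643%, 1.35% and 0.81% in ST14low.

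Reads of this pair can be shared. In the GENCODE coding sequences, 25.6% of the 36-base words of Abcb1b and 20.3% of its 50-base words also occur in Abcb1a, and the longest identical run is 338 bases. A stretch of 120 bases from that run is shown because a read from it fits both genes. It covers coding positions 1528 to 1647 of Abcb1b, and capitals mark the 15 bases that code for the ABC signature motif of the nucleotide-binding domain.
Abcb1b and Abcb1a: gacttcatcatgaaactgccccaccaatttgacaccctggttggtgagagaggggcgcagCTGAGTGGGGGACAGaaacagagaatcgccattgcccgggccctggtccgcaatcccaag

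How the authors' counting treated such reads is not given in the sources used here, so the Abcb1b level carries that uncertainty.

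**Figure D3:**
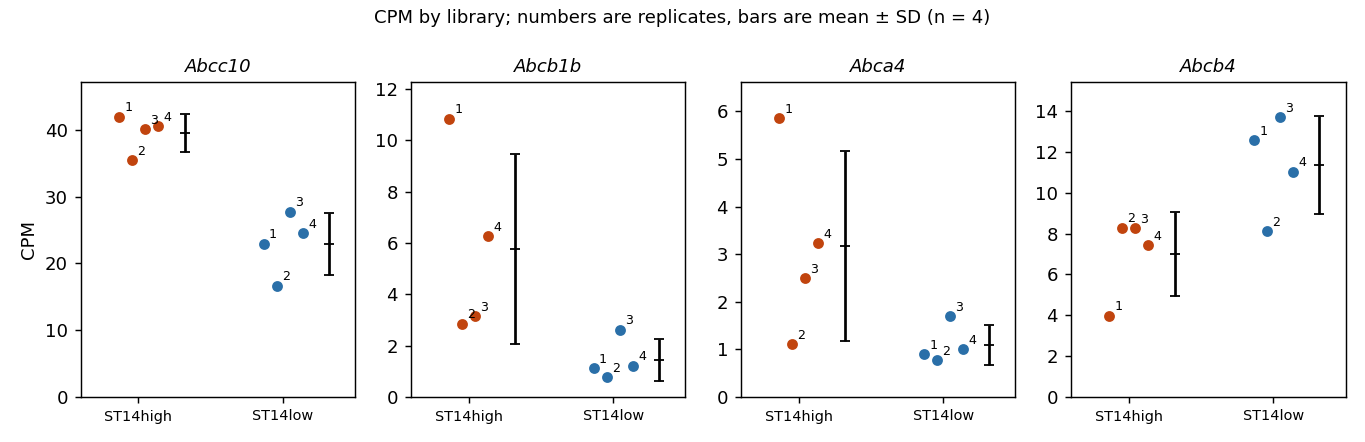
CPM of Abcc10, Abcb1b, Abca4 and Abcb4 in each library, with replicate numbers beside the points and the mean ± SD (n = 4) as bars. The ST14high points of Abcc10 (35.5 to 41.99 CPM) and Abcb1b (2.86 to 10.8 CPM) lie above every ST14low point, and those of Abca4 and Abcb4 overlap the ST14low points.

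None of the other conjugate exporters of the C subfamily was called by any tool. Abcc3 gave 332, 283, 371 and 273 CPM in ST14high and 387, 403, 389 and 334 CPM in ST14low. ST14high replicate 3 lay inside the ST14low range, and the other 3 lay under it. Its log2 fold change was -0.27 (SE 0.14, adjusted p = 0.575), with a 95% interval of the fold from 0.670 to 1.03. Abcc2, the canalicular exporter of bilirubin glucuronides, gave 13.1, 31.5, 35.2 and 35.7 CPM in ST14high and 35.8, 14.99, 43.9 and 18.2 CPM in ST14low. Each population held low and high libraries, and the log2 fold change was 0.04 (SE 0.40, adjusted p = 0.978).

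Abcc4, which exports cyclic nucleotides and bile acids with glutathione, gave 67.7, 83.7, 65.2 and 71.7 CPM in ST14high. The ST14low libraries gave 74.2, 109, 72.6 and 78.8 CPM, of which replicate 2 was the highest of all 8. The difference in Abcc4 was -0.22 on the log2 scale (SE 0.16, adjusted p = 0.684). Abcc6, whose loss in humans causes pseudoxanthoma elasticum, gave 4.85, 10.8, 9.86 and 17.6 CPM in ST14high and 9.87, 6.29, 8.17 and 10.2 CPM in ST14low. The ST14high libraries held both the lowest and the highest value. The difference in Abcc6 was 0.32 on the log2 scale (SE 0.37, adjusted p = 0.785).

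Abcg2, the short transporter known as breast cancer resistance protein and as the pump behind the side population of stem cell assays, gave 28.8, 25.1, 33.4 and 29.5 CPM in ST14high. It gave 35.7, 39.7, 29.7 and 34.2 CPM in ST14low. Abcg2 means were 29.2 ± 3.42 and 34.8 ± 4.13 CPM (SD, n = 4 each), and 1 ST14high library lay above the lowest ST14low library. The log2 fold change for Abcg2 was -0.26 (SE 0.15, adjusted p = 0.607), and its 95% interval allowed a fold between 0.664 and 1.06. Abcc5, an exporter of cyclic nucleotides, had 177 ± 29.2 CPM in ST14high and 171 ± 23.9 in ST14low (SD, n = 4 each). Abcg3, a rodent relative of Abcg2, was between 0 and 4.16 CPM.

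Among lipid exporters of the A and G subfamilies, 13 of 17 were tested, 6 had fold changes above 0 and 7 below (median log2 -0.08), and none passed with any tool. DESeq2 gave Abca8a no adjusted p. The abundant members Abca3 and Abca2 were nearly level between populations. Abca3 had 236 ± 25.2 CPM in ST14high and 268 ± 25.2 in ST14low (SD, n = 4 each). Abca2, a lysosomal sterol and sphingolipid transporter, had 169 ± 11.4 and 179 ± 13.0 CPM (SD, n = 4 each). The log2 fold changes of Abca3 and Abca2 were -0.18 and -0.08. Abca7, which loads phospholipid onto apolipoproteins, had 23.1 ± 7.23 and 22.2 ± 5.09 CPM (SD, n = 4 each).

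Abca4, known as the retinoid flippase of photoreceptors, gave 5.86, 1.11, 2.50 and 3.23 CPM in ST14high and 0.894, 0.767, 1.70 and 0.999 CPM in ST14low. ST14high replicate 2 fell among the ST14low libraries and the other 3 were above them. Its log2 fold change was 1.57 (SE 0.59), with an unadjusted p of 0.0241 and an adjusted p of 0.455 in edgeR and 0.26 in DESeq2. Abca4 was one of the 12 tested genes under 10 CPM, with 415 counts over all libraries. Its highest library was also ST14high replicate 1, and leaving that library out gave a log2 difference of 1.10 for Abca4. With limma voom it was 0.82.

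Values of several A and G members rested on ST14high replicate 1. Abca1, which passes cholesterol and phospholipid to apolipoprotein A-I, gave 143, 43.6, 43.7 and 39.0 CPM in ST14high and 39.9, 22.5, 62.9 and 70.8 CPM in ST14low. Replicate 1 was the highest of all 8 libraries, and the other 3 ST14high libraries lay inside the ST14low range. The log2 fold change of Abca1 was 0.46 (SE 0.48, adjusted p = 0.768) and -0.22 without that library. Abca8a, a xenobiotic and lipid transporter, gave 30.5, 2.03, 2.74 and 4.53 CPM in ST14high and 3.53, 2.30, 3.08 and 5.43 CPM in ST14low. Again only replicate 1 of ST14high stood above the rest, and the log2 fold change was 1.45, or -0.22 without it.

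Abcg1, which moves cholesterol to high-density lipoprotein in macrophages and other cells, gave 17.3, 2.18, 1.18 and 6.61 CPM in ST14high and 4.68, 7.72, 12.8 and 5.74 CPM in ST14low. Its highest ST14high library was replicate 1 and its highest ST14low library was replicate 3. The log2 fold change for Abcg1 was -0.18 (SE 0.73, adjusted p = 0.954). It was -1.20 without ST14high replicate 1 and -1.26 with limma voom, and it turned above 0 without ST14high replicate 2 (0.11) or 3 (0.15) or ST14low replicate 3 (0.16). The 12 endothelial markers summed to 1193, 254, 21.3 and 391 CPM in ST14high and 326, 966, 1289 and 309 CPM in ST14low. The 10 macrophage and dendritic cell markers tested had a median log2 fold change of -1.94, and the list of 11 summed to 241 to 335.5 CPM in ST14high and 334 to 867 in ST14low. Csf1r alone gave 161 to 235 CPM of these sums in ST14high and 199 to 312 in ST14low. The 6 mesothelial markers summed to 1019 CPM in ST14high replicate 1, against 297 to 401 in the other ST14high libraries and 155 to 269 in ST14low. Gpm6a alone gave 170 to 242 CPM of these sums in ST14high and 133 to 214 in ST14low. The part of these cell types, of the stellate cells and of the pancreatic acinar cells in the Abca1, Abca8a and Abcg1 values was not tested.

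**Figure D4:**
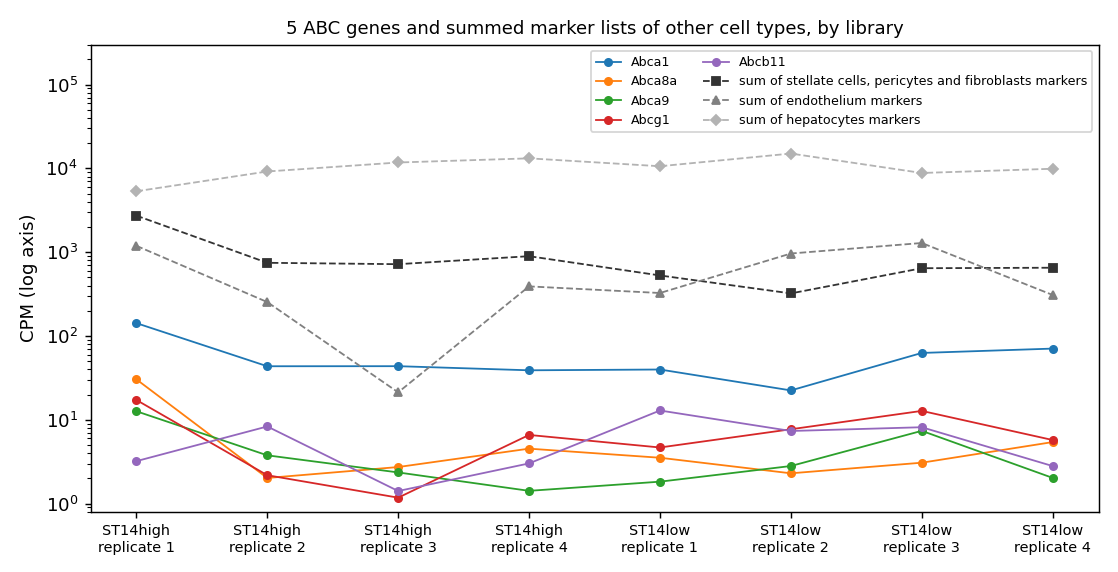
CPM (log axis) of Abca1, Abca8a, Abca9, Abcg1 and Abcb11 in each library, beside the summed CPM of stellate cell, endothelial and hepatocyte markers. Lines only join the points of a gene or list, since libraries have no order. Abca1, Abca8a and Abca9 peak in ST14high replicate 1, where the stellate cell sum is 2734 CPM and the endothelial sum 1193 CPM. The endothelial sum is higher in ST14low replicate 3, at 1289 CPM. The acinar marker sum, 10930 CPM in ST14high replicate 1, is not drawn.

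Abca8b, Abca8a, Abca9, Abca6 and Abca5 lie in this order on the minus strand of chromosome 11 (109794719 to 110199030 in mm9), with gaps of 29816, 4883, 8667 and 17591 bases. These genes are A subfamily transporters of lipids and xenobiotics. The genes fell in 2 sets by the library in which they were highest. Abca9 was highest in ST14high replicate 1, as Abca8a was, at 12.7 CPM against 1.42 to 7.39 in the others. Abca6, Abca5 and Abca8b were highest in ST14low replicate 3, at 52.5, 63.9 and 35.4 CPM, and were lowest in ST14low replicate 2, at 8.90, 18.8 and 14.1 CPM. ST14low replicate 3 was also the shallowest library and had the highest endothelial sum, 1289 CPM. ST14low replicate 2, where Abca6, Abca5 and Abca8b were lowest, had a sum of 966 CPM, against 326 and 309 in ST14low replicates 1 and 4. The part of endothelial RNA in these values was not tested. The log2 fold changes were -0.28 for Abca8b, 0.55 for Abca9, -0.49 for Abca6 and -0.16 for Abca5. Abca15 and Abca13, the remaining tested members of the group, were between 0.189 and 2.62 CPM.

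All 5 short B subfamily transporters of mitochondria and lysosomes had fold changes below 0 (median log2 -0.21, from -0.35 to -0.06), and none passed the test. Abcb8, a mitochondrial transporter linked to iron export and potassium channels, had 43.9 ± 3.13 CPM in ST14high and 45.9 ± 4.67 in ST14low. Abcb10, needed for haem synthesis, had 37.2 ± 11.4 and 43.0 ± 6.50 CPM. These values are means with SD over 4 libraries of each population, and the populations overlapped for both genes. Abcb6, a porphyrin transporter, had 16.9 ± 2.35 and 20.4 ± 3.43 CPM, and Abcb9, a lysosomal peptide transporter, had 9.11 ± 3.09 and 11.6 ± 1.51 CPM (SD, n = 4 each). The intervals of the 5 genes lay within 2-fold.

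Short D subfamily transporters of peroxisomes and lysosomes numbered 4, with 2 fold changes above 0 and 2 below, and none passed the test. Per length Abcd3 had 86.1 RPKM and Abcd4 9.54. Abcd3 had 212 ± 4.93 CPM in ST14high and 227 ± 19.4 in ST14low (SD, n = 4 each), and its coefficient of variation over 8 libraries, 6.98%, was the smallest among the 42 members. The fold for Abcd3 was 0.935, with a 95% interval of 0.784 to 1.11. Abcd4, which works in lysosomal cobalamin release, had 18.9 ± 2.06 and 16.1 ± 2.03 CPM (SD, n = 4 each). Abcd2, a peroxisomal fatty acid importer, was between 0 and 1.39 CPM. Pex19, the receptor that brings peroxisomal membrane proteins to their target, had 108 ± 11.6 and 119 ± 12.6 CPM (SD, n = 4 each).

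The sulphonylurea receptors form the regulatory part of ATP-sensitive potassium channels. Abcc9 (SUR2) gave 64.9, 55.2, 28.6 and 50.6 CPM in ST14high and 40.1, 26.3, 78.7 and 56.1 CPM in ST14low. The lowest and the highest library were both in ST14low, and the log2 fold change was -0.01 (SE 0.34, adjusted p = 0.994). Kcnj8, the pore subunit that pairs with it, had 3.26 ± 1.93 and 2.05 ± 0.835 CPM (SD, n = 4 each). Abcc9 is also known in pericytes, and the part of such cells in its level was not tested.

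Abcc8 (SUR1), the receptor of pancreatic beta cells, was not tested. It had 24, 42, 0 and 0 counts in ST14high and 3, 2, 0 and 0 in ST14low. Counts of 6 islet hormone genes in the same libraries were 382, 2202, 0 and 1874 in ST14high and 3, 0, 0 and 6 in ST14low. The libraries with most Abcc8 counts had islet counts, and ST14high replicate 4 had islet counts with 0 of Abcc8. The part of islet RNA in the Abcc8 counts was not tested.

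The 4 translation factors of the family had log2 fold changes from -0.22 to 0.02, and none passed the test. Abce1, which splits ribosomes for recycling, had 78.5 ± 6.94 CPM in ST14high and 78.7 ± 8.55 in ST14low (SD, n = 4 each). The fold for Abce1 was 0.999, with a 95% interval of 0.819 to 1.22. Abcf1, which works with initiation factor eIF2, had 89.1 ± 12.7 and 87.9 ± 4.16 CPM, a fold of 1.01 (95% interval 0.825 to 1.25). Abcf2 had 39.9 ± 2.87 and 44.4 ± 11.2 CPM, and Abcf3 had 49.0 ± 8.43 and 56.9 ± 7.76 CPM (SD, n = 4 each).

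Among 3 ABC proteins whose symbols fall outside the rule, all fold changes were below 0 (median log2 -0.32), and none passed the test. Cftr, the chloride channel of the duct's apical membrane and a member of the C subfamily by structure, had 70.7, 108, 88.6 and 78.9 CPM in ST14high and 76.0, 114, 125 and 117 CPM in ST14low. The ranges overlapped, and the log2 fold change was -0.32 (SE 0.19, adjusted p = 0.607). Tap1 and Tap2 carry peptides into the endoplasmic reticulum for MHC class I. Tap1 had 69.4 ± 10.9 and 95.9 ± 14.5 CPM (log2 fold change -0.47, SE 0.16, unadjusted p = 0.0151, adjusted p = 0.398). Tap2 had 114 ± 12.5 and 124 ± 9.94 CPM (SD, n = 4 each for both Tap genes).

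Nuclear receptors and other transcription factors that regulate ABC genes (Nfe2l2 and Ahr are not nuclear receptors) were tested as a list of 15, of which 8 had fold changes above 0 and 7 below (median log2 0.09). In edgeR none passed, 1 had a p under 0.05 before adjustment, and DESeq2 called the same gene. Over all genes, 9.56% had such an unadjusted p in edgeR, and DESeq2 called 1.62% as higher in ST14high. The members of highest mean CPM over the 8 libraries were Nfe2l2, the oxidative stress factor, with 286 ± 34.3 CPM in ST14high and 243 ± 13.6 in ST14low, and Rxra, the shared partner receptor, with 156 ± 20.4 and 181 ± 15.1 CPM. The called gene, chosen here after its values were seen, was Vdr, the vitamin D and lithocholic acid receptor. Vdr gave 35.7, 3.10, 0.613 and 5.33 CPM in ST14high and 1.74, 0.665, 0.616 and 1.12 CPM in ST14low. Its highest library was again ST14high replicate 1. The adjusted p for Vdr was 0.365 in edgeR and 0.0148 in DESeq2.

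Carriers that work beside the ABC exporters had no called member. Of 13 genes, 11 were tested, 5 had fold changes above 0 and 6 below, and 0 had an unadjusted p under 0.05 in edgeR. Of all genes tested, 9.56% had such a p. By mean CPM the highest were Slco3a1 and Tmem30a. Slco3a1, an organic anion carrier, had 250 ± 57.0 CPM in ST14high and 234 ± 15.5 in ST14low, and Tmem30a, the subunit that brings lipid flippases to the surface, had 190 ± 13.2 and 183 ± 53.9 CPM (SD, n = 4 each). Osta and Ostb, which form the basolateral bile acid exporter, had at most 0.343 CPM in any library and were not tested. Among 14 partners and scaffolds of ABC proteins, 5 had fold changes above 0 and 9 below, and 0 passed the test. The highest by mean CPM were Apoe, a lipid acceptor, with 5530 ± 1537 and 6620 ± 1528 CPM, and Ezr, the membrane linker ezrin, with 675 ± 216 and 541 ± 123 CPM (SD, n = 4 each).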

How the data were processed

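The 8 mouse libraries, 4 of ST14high and 4 of ST14low cells, were grouped by their labels. CASAVA 1.8.2, Bowtie 1.0.0 and mm9 are named, without roles, in the submitters' processing notes. Not given in the sources used here are the read counter, annotation release, strand setting and read length. For each RefSeq transcript the authors deposited a position, a raw count and an RPKM value, per the file headers. Whether starts are counted from 0 or 1 is not given. The deposited counts were whole numbers. The deposited RPKM served only to compare levels between genes.

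The members and lists were chosen with earlier results of these data known. For each symbol the transcript with the largest summed count was kept. Counts were tested with edgeR 4.0.16 (R 4.3.3): genes kept by filterByExpr, TMM factors, quasi-likelihood test, two-sided, Benjamini-Hochberg adjustment over 13749 genes, threshold 0.05. CPM used TMM-scaled totals. Standard errors were the log2 fold change divided by the square root of F. The procedure was tested on simulated data. Alternatives were DESeq2 1.42.0, limma 3.58.1 (voom with library quality weights), other scalings and filters, the transcript of widest span, a replicate block and each library left out.

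Values in every library and full statistics were given for 14 hepatobiliary and lipid exporters fixed by name and for members with an unadjusted p under 0.05 or no overlap. Members with at least 10 CPM were otherwise given by mean and SD or fold change, the rest by range. Of the other lists, the genes that passed or the 2 of highest level were named. RefSeq promoters (GRCm38.p6) and GENCODE M21 coding sequences gave the sequences printed. Library totals were 6398307 to 42769988 counts. Some genes are not reported here.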

Additional observations from a re-analysis of the deposited data

Results flagged for a closer look

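In each population the highest and lowest library of every tested member was set against the other 3 by Dixon's criterion for 4 values. Of 84 groups, 7 held a library that stood apart, and chance alone gives about 1 in 20, or 4.2. ST14high replicate 1 held 2 of them: Abca1 with 142.6 CPM (others 39.0 to 43.7) and Abca8a with 30.45 CPM (others 2.03 to 4.53). In ST14high replicate 4, Abcf1 was lowest with 70.07 CPM (others 94.5 to 97.0). In ST14low replicate 2, Abcd3 was lowest with 198.5 CPM (others 233.5 to 240.5) and Abcc4 highest with 109.3 CPM (others 72.6 to 78.8). Abcd4 was highest in ST14low replicate 4 with 19.14 CPM (others 14.9 to 15.6), and Abcd2 in ST14low replicate 3 with 1.386 CPM (others 0.614 to 0.687). Without its library, the log2 fold change of Abcf1 was 0.12 in place of 0.02, and that of Abcd3 was -0.17 in place of -0.10. The value for Abcc4 was -0.08 in place of -0.22, for Abcd4 0.31 in place of 0.22, and for Abcd2 -0.58 in place of -0.91.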

How the results depend on the processing

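No member passed edgeR's adjusted threshold under any scaling, filter, left-out library or limma voom, and DESeq2 called 2. With each library left out, DESeq2 called 0 to 2 members, and 1.16% to 3.03% of all genes, counting both directions. At an unadjusted p under 0.05 the 4 members became 2 with a filter of 5 CPM in 4 libraries (6.25%, against 8.58% of all genes). That filter removed Abcb1b and Abca4. Such members numbered 8 with limma voom (19.0% against 11.1%) and 2 to 6 with a library left out (4.65% to 14.3%, against 6.43% to 11.3%). The number whose populations did not overlap was 1 with the filter of 5 CPM (3.12%, against 5.82% of all genes), since Abcb1b was removed. With a library left out it was 2 to 6 (4.65% to 14.0%, against 8.19% to 12.8%). The median log2 fold change of members ran from -0.161 to 0.023 with a library left out. Same-numbered libraries did not deviate together over all genes tested (correlations 0.052, 0.052, -0.125 and 0.005), and the main fit used no pairing. Such correlations cannot exclude a shared animal or sort, which the labels do not state. With a replicate block, 2 members had an unadjusted p under 0.05 (4.76%, against 8.20% of all genes in that fit), and 0 passed. In that fit the log2 fold change was 0.057 for Abcc9 and -0.029 for Abcg5. Of 16 genes with full statistics, 9 kept their sign in every alternative run, and Abcc10 ranged from 0.65 to 0.88. Since the populations of Abcc10 and Abcb1b did not overlap, leaving out a library could not be expected to turn their sign. With limma voom the sign turned for Abca1 (-0.20), Abcg5 (-0.44) and Abcg8 (-0.20). That fit also weighted libraries by quality, so it differed from edgeR in more than the tool. With a library left out, log2 fold changes ran from -0.22 to 0.69 for Abca1, -0.18 to 0.33 for Abcc2, -0.019 to 0.56 for Abcc6, -0.24 to 0.28 for Abcc9, -1.20 to 0.16 for Abcg1 and -0.37 to 1.22 for Abcg5. Without a sign change they ran from -1.62 to -0.61 for Abcb11 and 0.043 to 1.06 for Abcg8. The cause of these turns was not tested. A count of 0 in ST14low replicate 3 allows up to 0.462 CPM.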
